A study of Mus musculus with 7 samples.

Results

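The 9 genes described here encode the core of T cell receptor signalling, namely the invariant receptor chains (Cd3d, Cd3e, Cd3g and Cd247), the coreceptor (Cd4), the kinases Lck and Zap70, and the adaptors Lat and Lcp2. They were chosen by name, and their members in the data are the peaks that the authors' deposited peak list assigns to them. These were 12 of the 6395 listed peaks, at 7 of the 9 genes. No row was assigned to Cd3g or Lat.

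The assay was ATAC-seq, which reads open chromatin from the places a transposase can reach, and the cells were T follicular helper (Tfh) cells from the spleens of B6/Sle1.Yaa mice with a time point label of 5 months. Tfh cells give help to germinal centre B cells. They were sorted as CD4+ CD44+ GITR- cells that were PSGL-1 low, CXCR5 high and PD-1 high. Mice of the treated group (4 samples) were given antibody to IFNAR1, part of the type I interferon receptor, and those of the control group (3 samples) anti-rat IgG, both 2 times a week for 4 weeks. Both groups carry the Sle1 lupus susceptibility interval and the Yaa translocation, so neither is a healthy baseline, and the labels do not say whether a sample was 1 mouse or several. The target is spelled IFNA1 in the treatment label but IFNAR1 in the title of the series, which is the name used here.

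The T cell receptor recognises peptide on MHC through a variable heterodimer, which has no signalling part of its own. The CD3 chains and the zeta chain (Cd247) carry the tyrosine motifs that Lck phosphorylates after CD4 has brought it to the receptor. ZAP-70 docks on these motifs and phosphorylates LAT and SLP-76 (Lcp2), the scaffold pair from which calcium, Ras and protein kinase C signals start. In Tfh cells this signal from B cells sustains the helper state, and the high PD-1 of these cells restrains it.

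Each listed peak was higher on the anti-IFNAR1 side than over the control IgG background, and the list holds no peaks in the other direction. Its values are 1 number per side and not per mouse, so nothing below carries a spread between mice. Pileup, fold and q are the authors' own. The pileup is the number of fragments over the summit of a peak, scaled by the caller to the depth of the control side. The fold divides it by the caller's control background after 1 is added to both, and q is the caller's adjusted p. Pileups were whole multiples of 0.283, so unscaled fragment numbers could be recovered. The anti-IFNAR1 side was 3.54 times as deep as the control side. The depth of each sample is unknown.

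Of the sort markers and other Tfh markers, Cd4, Pdcd1 and Bcl6 had a listed peak and Cd44, Cxcr5 and Icos had none. None of 5 B cell, 5 CD8 T and NK cell or 4 gamma delta T cell markers had a listed peak, and 1 of 5 myeloid markers (Cd14) did, where 21.1% of all protein-coding genes had one. That share is not like for like for the gamma delta markers Trdc, Trgc1 and Trgc2, which are receptor constant segments. A list of peaks that differ between treatments does not show whether a site is open in both, so these counts do not test the purity of the sort, and a share of other cells was not tested.

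Both Lck start sites and the Cd3e start site fell on or beside listed peaks, and their upstream sequences are shown because these are the starts in the RefSeq promoter table whose window a listed peak of these genes overlapped. Lck has a distal promoter, used in mature T cells of the mouse, and a proximal promoter in front of the next exon, used mainly in thymocytes. The sequences are the 250 bases before the RefSeq start on build GRCm38.p6, all on the minus strand, written 5′ to 3′ of the gene, with capitals for matches to the motifs described next.
Lck proximal, chr4:129558373-129558622: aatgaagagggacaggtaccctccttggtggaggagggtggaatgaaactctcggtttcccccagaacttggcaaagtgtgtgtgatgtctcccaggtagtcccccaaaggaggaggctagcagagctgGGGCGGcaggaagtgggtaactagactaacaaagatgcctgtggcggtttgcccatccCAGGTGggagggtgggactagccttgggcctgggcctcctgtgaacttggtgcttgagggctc
Lck distal, chr4:129573642-129573891: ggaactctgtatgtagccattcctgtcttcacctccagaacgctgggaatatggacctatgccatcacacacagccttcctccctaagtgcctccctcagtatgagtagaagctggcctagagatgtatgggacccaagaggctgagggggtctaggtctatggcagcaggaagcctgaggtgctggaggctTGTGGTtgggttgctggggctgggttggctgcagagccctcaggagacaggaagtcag
Cd3e, chr9:45009612-45009861: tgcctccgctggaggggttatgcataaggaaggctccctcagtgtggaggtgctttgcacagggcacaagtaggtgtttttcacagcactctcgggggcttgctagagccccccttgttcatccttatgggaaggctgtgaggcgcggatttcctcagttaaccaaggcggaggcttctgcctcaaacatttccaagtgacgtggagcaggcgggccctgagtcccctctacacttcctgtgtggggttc

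The Lck proximal stretch held 1 SP and KLF match (GGGCGG) and 1 E protein match (CAGNTG), and the Lck distal stretch held 1 RUNX match (TGTGGT). The Cd3e stretch held no match to the 7 motifs searched. The others were ETS (CCGGAA), TCF and LEF (CTTTGA), AP-1 (TGANTCA) and interferon response (GAAA, any 2 bases, GAAA), each searched on both strands, and no matches overlapped in the member sequences. The listed peak covered all 300 bases of the Lck proximal window (250 before to 50 after the start), 294 bases of the Cd3e window and 3 bases of the Lck distal window, where the peak lay inside the transcript. The table of RefSeq promoters had 11 windows for 8 of the genes, and Cd4 was not in it. Over these 11 windows an E protein match stood in 10, against 51.4% of all 32851 windows of the table. In the 250 upstream bases alone it stood in 8 of 11, against 44.8%. Over the full windows, TCF and LEF stood in 4 of the 11, against 16.0%, and RUNX in 3, against 16.8%. SP and KLF stood in 2, against 35.7%, and ETS in 1, against 14.9%. The AP-1 and interferon response motifs stood in none, against 7.81% and 3.44% of all windows. At shares this low, 11 windows are too few to tell an absence from the background. A match describes letters and does not show that a factor binds there.

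Listed peaks were assigned to 7 of the 9 genes, against 21.1% of all 21900 protein-coding genes. Many genes of that background are not active in T cells, and the genes were not chosen at random, so the difference is a description. The same 7 genes had a peak within 5 kb of their span, against 29.1%, and at a q of 0.01 the count was again 7, against 18.1%. On the receptor side 4 of 5 genes were listed, with 7 peaks, and of the kinases and adaptors 3 of 4, with 5 peaks. A peak in the TSS section, which the file uses for sites at or near a transcription start, was present at 5 of the 9, against 18.5% of protein-coding genes. For Zap70 that peak ended 574 bp before the start. An exact test that also counts noise in the control fragments at the summit was set against the largest p in the list. By it, 1 gene (Cd3d) kept a p no larger, against 5.2% of protein-coding genes with such a peak. Of the 12 peaks 1 did, against 20.9% of all listed peaks.

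**Figure D1:**
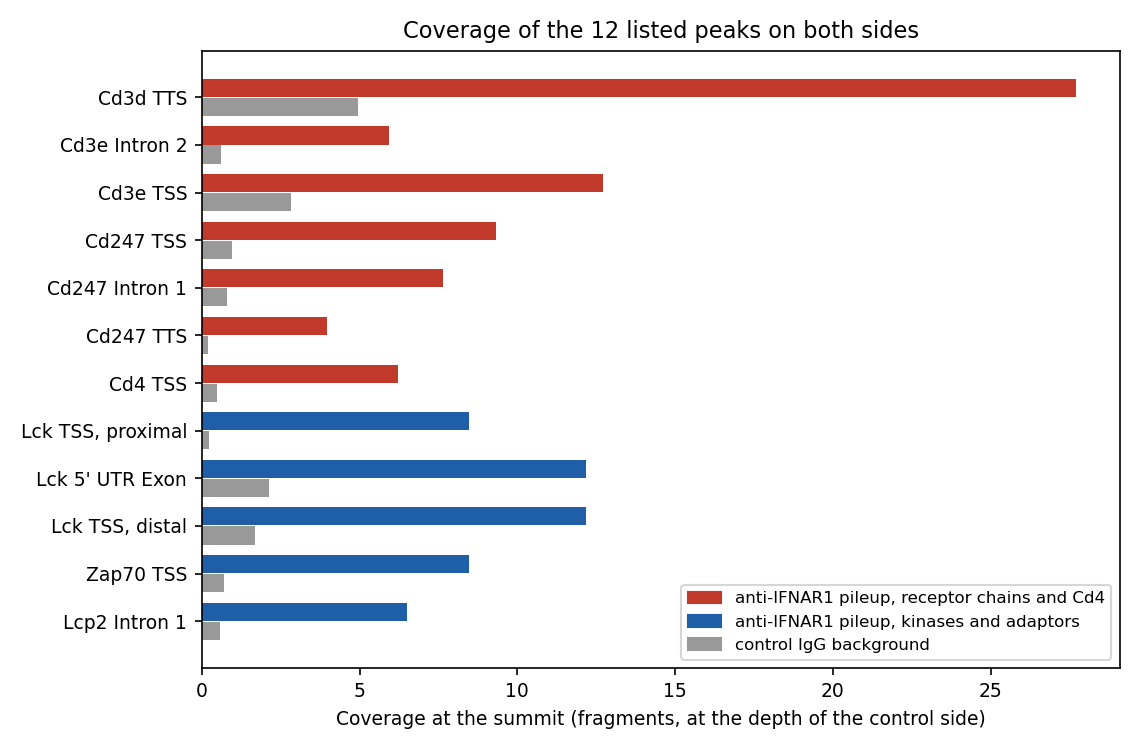
Summit coverage of the 12 peaks, with the anti-IFNAR1 pileup (coloured by role) above the control IgG background (grey) for each peak, in fragments at the depth of the control side. The Cd3d peak has the highest coverage on both sides, and the Lck proximal and Cd247 TTS peaks have backgrounds of 0.236 and 0.189.

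The CD3 genes lie in 1 cluster, and coverage there was highest at the end of Cd3d. Cd3d encodes the delta chain, which pairs with CD3 epsilon. Its peak, on chromosome 9 from 44985940 to 44987202 (mm10), was placed at the transcription termination site (TTS), and its summit lay 213 bp before the RefSeq end of the gene. It held 98 anti-IFNAR1 fragments (pileup 27.7), set against a control background of 4.96, a fold of 4.82 with q = 1.00e-08. Of the whole list, 2.17% of peaks had a higher pileup, and at 1262 bp the peak was the widest of the 12. Its fold stood near the middle of the list, where 48.0% of peaks had a higher one. In humans, a T cell enhancer lies at the end of the gene for CD3 delta, and whether this mouse peak is its counterpart was not tested. No listed peak stood at the start of Cd3d.

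Cd3e, the gene of the epsilon chain, had 2 peaks, 463 bp apart. The TSS peak (chromosome 9, 45009424 to 45009856) held 45 fragments in anti-IFNAR1 mice over a background of 2.83 in control IgG mice. Its fold of 3.58 (q = 0.00940) was the lowest of the 12. The peak in intron 2 (45008594 to 45008961) held 21 fragments over 0.614, a fold of 4.30 (q = 0.0338). Cd3g, the gene of the gamma chain, starts beside Cd3d on the opposite strand and had no listed peak. The nearest one was the Cd3d TTS peak, 5.51 kb away. The start region that Cd3g and Cd3d share therefore held no listed peak.

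Cd247 encodes the zeta chain, which carries most of the tyrosine motifs of the receptor, and 3 peaks were assigned to it over a RefSeq span of chromosome 1 from 165779952 to 165871153. Among these 3, pileup and control background were both lower at each next peak along the gene. The TSS peak (165788858 to 165790049) held 33 anti-IFNAR1 fragments, set against a control background of 0.944, a fold of 5.31 (q = 0.000143). The intron 1 peak (165803497 to 165803824) lay 14.6 kb further on by summit and held 27 fragments over 0.802, a fold of 4.79 (q = 0.00267). The TTS peak (165868091 to 165868549), at the end of a shorter transcript, held 14 fragments over 0.189, a fold of 4.17 (q = 0.0349). It had the lowest pileup and the largest q of the 12, and Pou2f1 overlaps the gene there. A further pair of listed peaks inside the Cd247 span was assigned to noncoding transcripts. The Gm16565 peak, with its summit 747 bp from the RefSeq start of Cd247, held 27 anti-IFNAR1 and 1 control fragment (fold 4.32, q = 0.0105). The Gm32999 peak, between the intron 1 and TTS peaks, held 50 fragments over 2.83 (fold 3.95, q = 0.000549), more on both sides than any of the 3.

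Cd4 encodes the coreceptor that binds MHC class II and carries Lck. Its single peak (chromosome 6, 124888068 to 124888464) lay at the TSS, with its summit at the RefSeq start of the gene. It held 22 anti-IFNAR1 fragments, set against a control background of 0.472, a fold of 4.90 (q = 0.00105). A pair of intergenic peaks lay upstream, between Cd4 and Lag3, with summits 13.1 and 15.6 kb from the gene. They are beyond the 5 kb used to name neighbours and were chosen after their values were seen. Each held 28 anti-IFNAR1 fragments and 1 control fragment (fold 4.46, q = 0.0105). In the mouse, an enhancer that drives Cd4 in T cells lies upstream of the gene, and whether either peak is that enhancer was not tested.

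**Figure D2:**
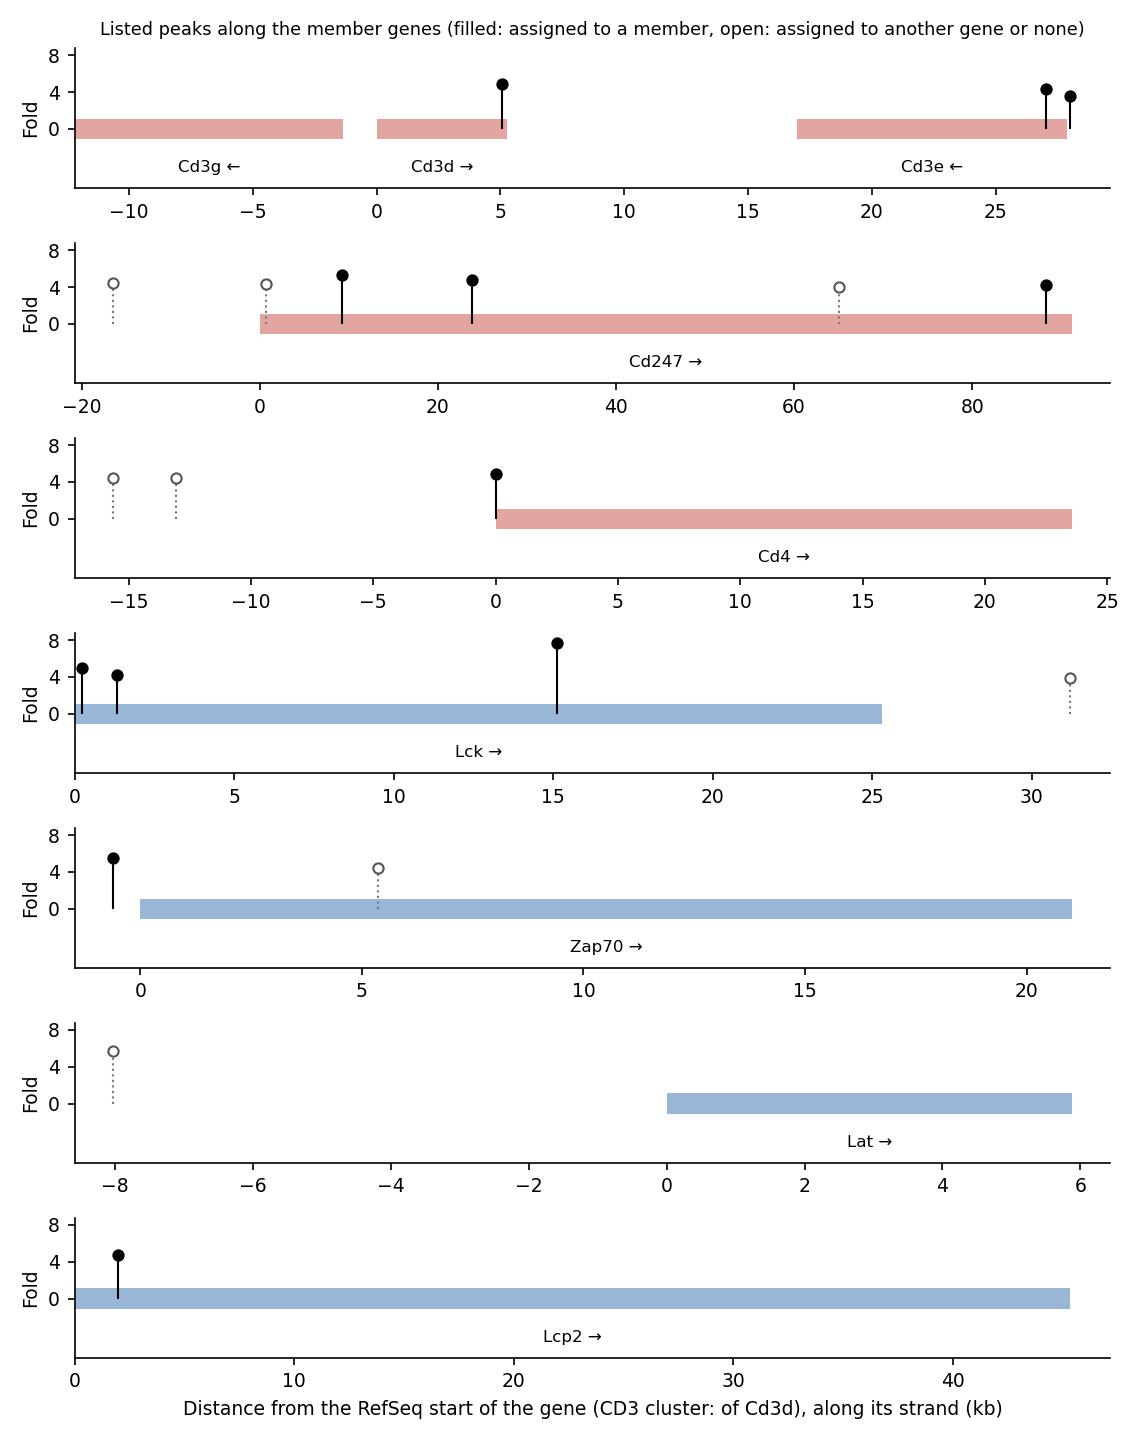
Listed peaks along the genes, drawn at their summits with the fold as height, against distance from the RefSeq start in kb along the strand of the gene. Cd247 carries 3 peaks of its own and Lck 3, whereas the Cd3g and Lat spans carry none.

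Among the kinases, Lck, which starts the cascade, had the peak with the highest fold of the 12. The peak at its proximal start (chromosome 4, 129558131 to 129558692) held 30 anti-IFNAR1 fragments, set against a control background of 0.236, which was 1 control fragment in the surrounding 1 kb. The fold was 7.67 (q = 4.45e-08), and 7.16% of listed peaks had a higher one. The peak at the distal start (129572685 to 129573595) held 43 fragments over 1.68, a fold of 4.92 (q = 7.11e-05). The remaining peak, in a 5′ UTR exon (129572070 to 129572393), lay 292 bp from it and held 43 fragments over 2.12, a fold of 4.21 (q = 0.000664). The distal pair thus had more anti-IFNAR1 fragments than the proximal start, and the higher fold of the proximal start went with the lower control background. At the summits themselves the control side had 0 fragments at the proximal start and at most 1 and 2 at the TSS and 5′ UTR exon peaks of the distal pair. A difference between the starts was not tested.

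Zap70 encodes the kinase that binds the phosphorylated chains. Its peak (chromosome 1, 36760760 to 36761224) ended 574 bp before the start of the annotated transcript, and the file places it in the TSS section. It held 30 anti-IFNAR1 fragments, set against a control background of 0.708, a fold of 5.55 (q = 0.000143). A peak inside the Zap70 span was assigned to the pseudogene Gm18828, with 44 anti-IFNAR1 against 2 control fragments (fold 4.48, q = 0.000382).

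Of the adaptors, Lcp2, the gene of SLP-76, had 1 peak, in intron 1 (chromosome 11, 34048754 to 34049295), 1834 bp from the TSS. It held 23 anti-IFNAR1 fragments, set against a control background of 0.566, a fold of 4.79 (q = 0.00287), and no peak stood at the Lcp2 start. Lat, the membrane scaffold of the cascade, had none. The nearest listed peak lay 7.89 kb from the gene, at the start of Spns1, with 60 fragments over 2.12 (fold 5.75, q = 7.66e-07).

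The fold and pileup ranges of receptor genes and signalling genes overlapped. The median fold was 4.79 for the 7 peaks of the receptor chains and Cd4 (range 3.58 to 5.31) and 4.92 for the 5 peaks of the kinases and adaptors (range 4.21 to 7.67), against 4.74 over the whole list. Only the Lck proximal and Zap70 peaks exceeded the highest receptor value. Median pileups were 7.63 on the receptor side and 8.48 for kinases and adaptors, both below the 11.6 of the whole list. The control background had medians of 0.802 and 0.708 in the same order, against 1.49 over the list. Peaks are not replicates, several belong to 1 gene, and no test of this difference was made.

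By section, TSS peaks were 3 of 7 on the receptor side and 3 of 5 for kinases and adaptors. Both TTS peaks, at Cd3d and Cd247, were on the receptor side. Over all 12 peaks, 6 were in the TSS section, against 72.4% of the list, and 3 in introns, against 7.01%. The others were 2 at a TTS, against 1.99%, and 1 in a 5′ UTR exon, against 3.63%. The 6 TSS peaks had a median fold of 5.12 and the other 6 a median of 4.54, whereas the list had 4.76 and 4.63. Genes with several peaks were 3 of 7, against 9.46% of the 4663 protein-coding genes that the file lists. These counts are small and no test was made on them.

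**Figure D3:**
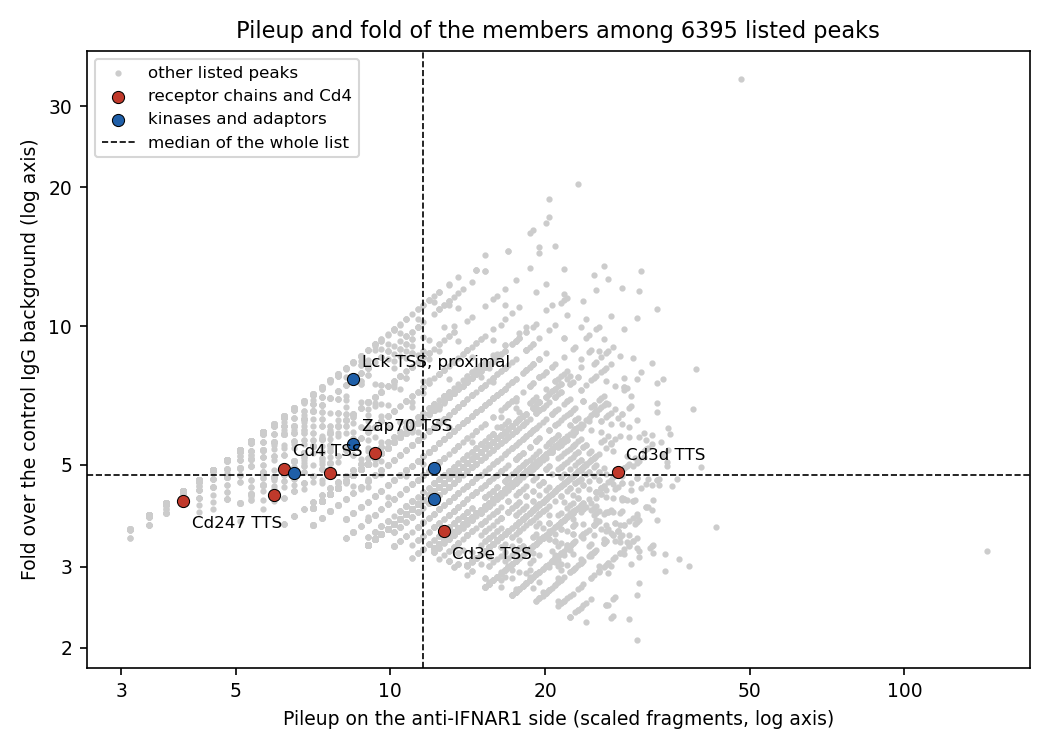
Pileup on the anti-IFNAR1 side (x) and fold over the control IgG background (y), both on log axes, for all listed peaks (grey), with the receptor side in red and kinases and adaptors in blue. Of the 12 peaks, 8 lie above the median fold of the list and 4 above its median pileup.

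Thin coverage limits how far each peak can be read. The caller takes the largest of the control coverage at the site, the mean over 1 kb, the mean over 10 kb and the genome rate. For none of the 12 was it the site, against 37.2% of the list, and 7 used the 1 kb window and 5 the 10 kb window. The fold of these peaks therefore sets a summit against the surrounding control coverage and not against the control coverage of the same site. At 8 of the 12 summits the control side had 0 fragments, against 31.6% of the list. Counted at the summit and scaled for depth, anti-IFNAR1 coverage there was at least 1.32-fold (Cd247 TTS) to at least 3.11-fold higher (Cd247 TSS), with 3 counts over the control side as the floor. The floor ratio was 2.83 for the Lck proximal and the Zap70 peaks, 2.17 for Lcp2 and 2.07 for Cd4.

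At the other 4 summits the number of control fragments is not known, so the largest number compatible with the background was used. The ratio was then 6.93 at Cd3d, with 98 against 4 fragments (exact 95% interval 2.62 to 25.9), and 6.36 at the Cd3e TSS, with 45 against 2 (1.66 to 54.1). At the Lck distal TSS it was 12.2, with 43 against 1 (2.07 to 491), and at the Lck 5′ UTR exon 6.08, with 43 against 2 (1.58 to 51.8). Intervals cover counting error of pooled fragments only, and floors cover that of the control side only. PCR copies are not independent molecules, and peaks were listed because their summits were high, which tilts every ratio towards a gain. The one-sided exact binomial test at the summit gave p = 2.95e-07 for Cd3d. For the other peaks the exact p ran from p = 0.000235 (Lck distal TSS) to p = 0.0306 (Cd247 TTS), above the 6.90e-05 that is the largest p of the list. With 0 control fragments that p needs 39 fragments, which the 8 peaks with 14 to 33 fragments could not reach. Against the caller's window, all 12 stayed at or below it, against 68.7% of the list. Where the background is the site, this test is the same as the one at the summit. None of the 12 was of that kind, against 37.2% of the list, so these shares are not like for like.

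**Figure D4:**
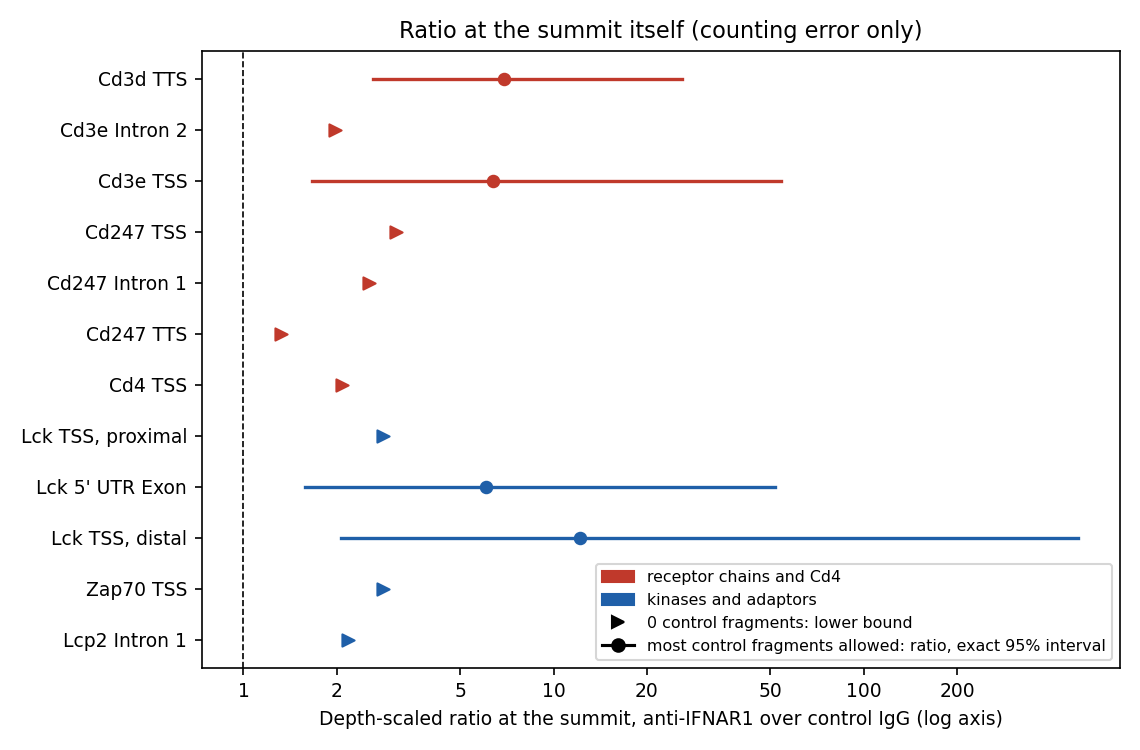
Depth-scaled ratio at the summit, anti-IFNAR1 over control IgG, on a log axis. Arrowheads, labelled lower bound, are ratios with 3 counts set for the control side where it had 0 fragments, from 1.32 to 3.11. They take the anti-IFNAR1 count as exact, so they are not like for like with the intervals. Circles with exact 95% intervals are ratios with the most control fragments allowed, from 6.08 to 12.2.

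Genes elsewhere in the cascade were also often listed. Of 62 further genes of the cascade, taken by role and not by value, 36 had a listed peak. All 36 were among the 59 protein-coding ones (61.0%, against 21.1% of all protein-coding genes). With 1 value per gene, the peak with the smallest q, their median fold was 4.99 (range 2.85 to 7.81). Over all 47 of their peaks the median was 4.42, against 4.74 over all peaks of the list. Of these 47 peaks, 22 lay above the list median. The value per gene takes the peak with the smallest q, so it is not like for like with the list.

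Of 10 proximal kinases and phosphatases, 6 were listed. The highest folds were those of Fyn, the Src family partner of Lck, with 7.21, and of Ubash3a, a suppressor of receptor signalling, with 5.96. Csk, which inhibits Lck, had 3.21 and the Tec kinase gene 3.35. Txk, Ptprc (CD45, which activates Lck), Ptpn6 and Ubash3b had no assigned peak. Of 17 adaptors and nucleators, 7 were listed, led by Dok2, an inhibitory adaptor, with 7.81 and Skap1, which links the receptor to integrins, with 7.50. The lowest were Nck2 with 4.14 and Pag1, the membrane anchor of Csk, with 5.31. The 10 without a peak were Grap2, Grb2, Vav3, Fyb, Themis, Trat1, Sla, Sla2, Was and Dok1.

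Of 10 calcium and calcineurin genes, 7 were listed. Stim1, the calcium sensor of the endoplasmic reticulum, had 5.85, with 110 anti-IFNAR1 fragments over 4.48, and the calcium release channel gene Itpr3 had 5.51. Orai1, the channel that STIM1 opens, had 3.22 and the phospholipase gene Plcg1 4.08. None of the 3 calcineurin genes, Ppp3ca, Ppp3cb and Ppp3r1, was listed. Of 13 genes of the diacylglycerol, Ras and protein kinase C branch, 8 were listed. Dgka, which removes diacylglycerol, had 5.31, and the lowest were Rasa1 with 3.33 and Bcl10 with 2.85. Sos1, Sos2, Rasa2 and Map2k1 were among those without a peak.

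Of 5 PI3K and ubiquitin ligase genes, 4 were listed, namely Cblb with 5.85, Pik3cd with 5.62, Pik3r1 with 4.15 and Cbl with 3.52, and Itch was not. Of the 7 receptor constant genes and synapse receptors, the 4 listed were the inhibitory receptor Cd5 with 6.81, Cd6 with 6.30, the adhesion receptor Cd2 with 5.07 and the costimulatory receptor Cd28 with 4.89. The receptor constant segments Trac, Trbc1 and Trbc2 had no assigned peak. Among those listed were genes that restrain the signal (such as Ubash3a, Csk, Dok2, Pag1, Dgka, Cbl, Cblb and Cd5) and genes that carry it (such as Fyn, Skap1, Stim1 and Pik3cd). Both kinds were also among those without an assigned peak, such as Ubash3b and Dok1, and Ptprc and the calcineurin genes. The genes were not sorted by kind, so no share is given for either.

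**Figure D5:**
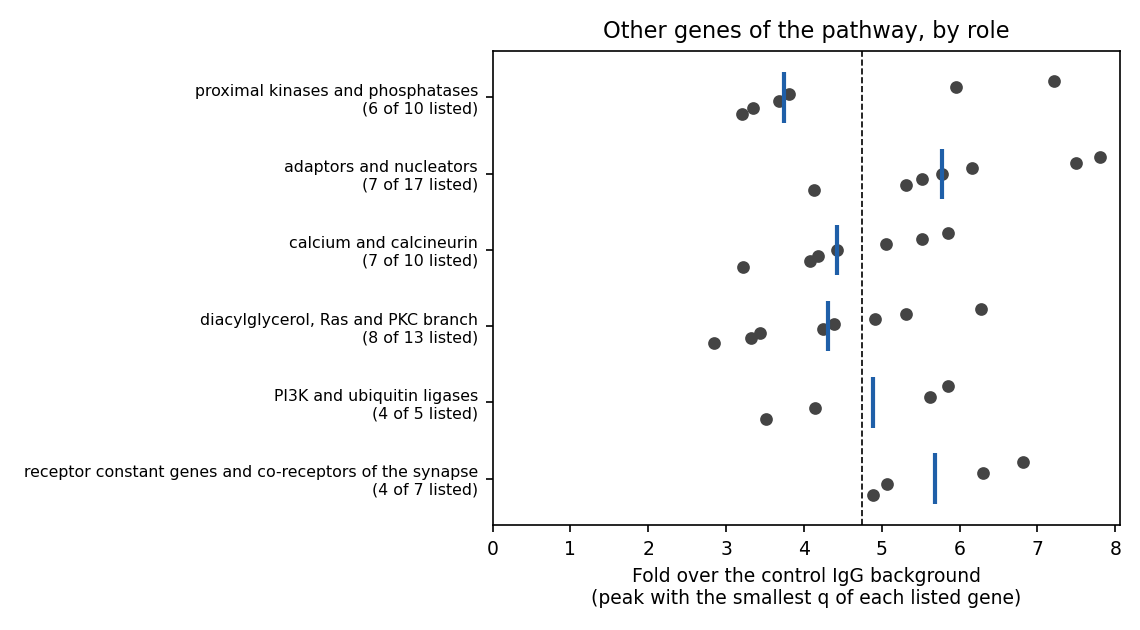
Fold over the control IgG background of the other pathway genes that had a listed peak, by role. Each point is the peak with the smallest q of 1 gene. Bars are the medians of each role, and the dashed line is the median over all peaks of the list. Role medians run from 3.74 for the proximal kinases and phosphatases to 5.78 for the adaptors and nucleators.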

How the data were processed

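ATAC-seq libraries of sorted Tfh cells were grouped by their treatment label. The submitters' processing notes name these tools with build mm10, with no role or order given: bedtools, DESeq2, DiffBind 2.0.7, MACS2 2.1.0.20150420 and BWA 0.7.9a. Cut-site shifting and duplicate removal: not given in the sources used here. What was analysed is 1 annotated peak list deposited by the authors, with q up to 0.05. Its peak names state IFN against Ig, which was read as anti-IFNAR1 over control IgG. That the samples of a group were pooled is an assumption. Both the pileup, a signal, and the fold enrichment, a ratio, are named per the file headers and were deposited by the authors. A further pair of deposited columns had damaged headers and was read as −log10 p and −log10 q. Recomputing −log10 p from a Poisson distribution gave values within 0.000381 of the deposited ones. Peak starts and ends are as the file gives them.

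Fragments are pileups divided by the step of 0.283 (tolerance 0.005), and the background is (pileup + 1)/fold − 1. Its source was read from its value with a fragment length of 236 bp, the shortest peak. The recovery was checked on simulated data whose backgrounds were counted at the site. None of the peaks of these genes had such a background. The exact tests are one-sided conditional binomial tests of unscaled fragments, and ratio intervals are exact (Clopper-Pearson). Genes were matched by symbol to RefSeq (GRCm38.p6, the same assembly as mm10), and promoter sequences are RefSeq's. Python 3.11.15, numpy 2.4.6, pandas 2.3.3, scipy 1.17.1 and matplotlib 3.10.9 were used.

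The genes, lists, motifs and alternatives were chosen with earlier results of these data known. Every member and every peak of it is named. Of the wider pathway, the 2 highest and 2 lowest folds of each role and all genes without a peak are named, apart from some that are not reported here. Since no column carries a sample, no differential fit was made.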

Additional observations from a re-analysis of the deposited data

How the results depend on the processing

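The count of 7 genes with a listed peak was also 7 at a q of 0.01 and with peaks within 5 kb of the gene span, and 5 with TSS peaks alone. With the exact test against the caller's window it was again 7 (14.6% of protein-coding genes). That test says little here, since it matches the summit test only where the background is the site. No peak of these genes was of that kind. A minimum pileup of 10 left 3 genes (14.2% of protein-coding genes) and 4 of the 12 peaks. The exact site test left 1 gene (5.2% of protein-coding genes) and 1 peak (20.9% of the list). TSS peaks alone left 6 peaks, a q of 0.01 left 10 and the caller's window 12. The median fold of the receptor side moved from 4.79 to 4.86 with 1 value per gene, 4.90 with TSS peaks alone and 4.54 without Cd4. That of kinases and adaptors moved from 4.92 to 5.55 with 1 value per gene and to 5.55 with TSS peaks alone. The wider pathway count of 36 was 29 at a q of 0.01, against 18.1% of protein-coding genes, and 26 with TSS peaks alone, against 18.5%. With peaks within 5 kb it was 41, of which 40 were among the 59 protein-coding genes, against 29.1% of all protein-coding genes. A stricter filter leaves fewer peaks by construction, and the cause of the other moves was not tested. The ratio at the site gave no medians, since no peak of these genes had a known control count above 0. No paired analysis was possible because no column carries a sample, and leaving out single samples was not run for the same reason.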

Other observations

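Further listed peaks stood near these genes and were assigned to other genes. The Hdac1 start peak, 5.72 kb from the end of Lck, held 33 anti-IFNAR1 fragments, set against a control background of 1.65 (fold 3.89, q = 0.00988). The Creg1 start peak, 16.3 kb from Cd247, held 57 over 2.83 (fold 4.47, q = 2.74e-05). Of the pathway genes without an assigned peak, Ptpn6, Fyb, Dok1, Sos2 and Trac had a listed peak within 5 kb of their span.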
